A study of Mus musculus with 18 samples.

Results

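The genes of the major histocompatibility complex (MHC) and of antigen presentation were followed in cultured mouse pro-B cells that lacked either EBF1 or PAX5, transcription factors that set up the B lineage. The set was chosen by name. It held the 43 genes of the deposited gene table whose symbol begins with H2- and 13 further genes of the presentation routes (Ciita, Cd74, B2m, Tap1, Tap2, Tapbp, Nlrc5, Psmb8, Psmb9, Psmb10, Ctss, Ifi30 and Erap1), which makes 56 of 24072 genes. The rule used no measured value. It takes in H2-Ke6, which encodes a hydroxysteroid dehydrogenase and has no known part in antigen presentation. It also takes in 3 entries listed under non-coding transcripts, H2-K2, H2-Q5 and H2-T10.

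Pro-B cells were grown from fetal livers of C57BL6/J mice that were wild type (WT), Ebf1 knock out (Ebf1-KO) or Pax5 deficient (Pax5-KO). All 3 genotypes were expanded on OP9 cells, a bone-marrow stromal line, with KIT ligand, FLT3 ligand and IL-7 at 10 ng/ml each. The alleles behind the knockouts are not described in the sources used here. RNA and open chromatin (ATAC, which reads where a transposase can cut DNA) were each sequenced in 9 libraries, 3 per genotype. Nothing in the labels says that the 3 libraries of a genotype came from separate fetuses or cultures, so p-values measure only the spread between these libraries, which may be technical.

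Proteasomes cut proteins of the cytosol into peptides, the TAP transporter carries them into the endoplasmic reticulum, and there they are loaded on class I molecules, a heavy chain paired with beta-2-microglobulin, which nearly all nucleated cells show to CD8 T cells. Class II molecules, an alpha and a beta chain, belong to B cells, dendritic cells and macrophages and are loaded in endosomes once the invariant chain CD74 has been cut away. NLRC5 is the transactivator of class I genes and CIITA that of class II genes. Both work through a promoter module of S, X and Y boxes, on which the RFX complex, CREB-type factors and NF-Y sit.

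RNA libraries held 27.3 to 89.1 M mapped reads, of which 15.6 to 63.6 M lay in exons, and ATAC libraries held 15.3 to 38.6 M tags. Pax5 read 1314 to 1629 reads per 10 M mapped reads for WT, 8.53 to 15.7 for Ebf1-KO and 98.6 to 129 for Pax5-KO. Ebf1 read 3252 to 4454 for WT, 1345 to 1605 for Ebf1-KO and 1328 to 1661 for Pax5-KO, and these sums over exons do not say whether the deleted part is read, so they do not check the labels. Of 9 pro-B markers, 8 fell in Ebf1-KO (all but Il7r) and 8 fell in Pax5-KO (all but Vpreb1). The 9 summed to 34229 to 36128 (WT), 2715 to 2909.8 (Ebf1-KO), and 14088 to 20388 (Pax5-KO), in reads per 10 M mapped reads. By these markers the label pro-B holds for WT and only in part for the knockouts, less so for Ebf1-KO than for Pax5-KO. Xist read 41026 to 47861 in Ebf1-KO, 15.4 to 37.3 in WT and 1.58 to 42.8 in Pax5-KO, and Uty, of the Y chromosome, read 0.345 to 1.10, 389 to 419.5 and 517 to 583. Genotype and sex of the source cells therefore cannot be told apart where Ebf1-KO is compared. The share of mapped reads in exons was 46.99 to 59.3% for WT, 60.5 to 69.8% for Ebf1-KO and 55.5 to 71.4% for Pax5-KO, and its part in the differences was not tested.

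Levels are reads per 10 M mapped reads, given for libraries 1, 2 and 3 in turn. Fold changes are on the log2(value + 1) scale, where those of low genes come out too small. Each is given ± SE after taking off the median over the 12839 genes tested, which was 0.31 for Ebf1-KO against WT, 0.28 for Pax5-KO against WT and 0.05 for Ebf1-KO against Pax5-KO. A gene was called when limma's adjusted p for the change before that step was under 0.05. Both knockouts were set against the same WT libraries, so their changes are not independent. In bulk RNA, fewer cells of a type and less RNA per cell cannot be told apart.

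In Ebf1-KO 16 of the 32 members tested were called higher than in WT and 7 lower, where 40.8% of all genes were called higher and 14.4% lower. In Pax5-KO 16 were higher and 4 lower, against 34.7% and 11.9% of all genes. Between the knockouts 8 members were higher in Ebf1-KO and 11 lower, against 17.5% and 13.3%. TMM scaling gave 14 higher and 9 lower in Ebf1-KO and 14 higher and 7 lower in Pax5-KO. Over all genes TMM took the share of higher among the calls from 73.9% to 51.6% in Ebf1-KO and from 74.5% to 51.9% in Pax5-KO. The members' median change was 0.12 for Ebf1-KO and 0.28 for Pax5-KO, on a scale where the median gene is at 0; the latter is the same with H2-Ab1, unread in Pax5-KO, put at its bound.

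Past 2-fold relative to the median gene, 4 members were called higher and 7 lower in Ebf1-KO (15.2% and 11.6% of all genes), and 8 higher and 4 lower in Pax5-KO (11.9% and 8.76%). Between the knockouts these counts were 7 and 11 (9.88% and 9.25%).

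The other 24 members had too few reads to be tested. Of these, 11 had no read in any library: H2-Ea-ps, H2-M1, H2-M2, H2-M5, H2-M9, H2-M10.1, H2-M10.3, H2-M10.4, H2-M10.5, H2-M11 and H2-Q2. Another 8 had 1 to 4 reads over the 9 libraries: H2-Eb2, H2-Bl, H2-M10.6, H2-T3, H2-Q1, H2-Q6, H2-Q8 and H2-Q10. The remaining 5, H2-DMb1, H2-Eb1, H2-Q7, H2-Q9 and H2-M10.2, had 14 to 79 reads. In 4 pairs the shorter entry lies wholly within the other, so both can count the same reads: H2-D1 with H2-L, H2-T22 with H2-T9, H2-Q6 with H2-Q8 and H2-Q7 with H2-Q9. C57BL/6 mice carry no separate H2-L gene. With 1 entry per pair, 15 of 30 members were higher and 6 lower in Ebf1-KO, and 15 higher and 4 lower in Pax5-KO. Many H2-Q, H2-T and H2-DMb genes are near-identical copies, and the sources used here do not say how reads that fit several copies were counted, so their single values are uncertain.

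On mm10, the H2- genes lie in the MHC on chromosome 17, among them H2-K1 (chr17:33996012-34000333), H2-Ob (chr17:34238905-34245908), H2-DMa (chr17:34122832-34139101), H2-Aa (chr17:34282751-34287771), H2-D1 (chr17:35263094-35267497) and H2-Q4 (chr17:35379617-35384674), and so do Tap1, Tap2, Tapbp, Psmb8 and Psmb9. Other members lie elsewhere, with B2m at chr2:122147687-122153082, Nlrc5 at chr8:94472763-94527272 and Ciita at chr16:10480072-10527640.

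The promoters of 6 members called in at least 1 comparison are shown for the letters of their X and Y boxes. Each is the 250 bases before RefSeq's start site, 5′ to 3′ along the gene, on GRCm38.p6: chr2:122147437-122147686 (+) for B2m, chr17:34000348-34000597 (−) for H2-K1, chr17:35262844-35263093 (+) for H2-D1, chr17:34287824-34288073 (−) for H2-Aa, chr17:34144999-34145248 (+) for H2-DMb2 and chr17:34238655-34238904 (+) for H2-Ob. For H2-K1, H2-Aa and H2-DMb2 that start is not the one in the deposited gene table, from which the distances of the H2-DMb2 regions given later are counted. Capitals mark CCAAT (Y box), TGACG (X2 box), CCTAGCA (X1 box) and the interferon-stimulated element, read on either strand.
B2m: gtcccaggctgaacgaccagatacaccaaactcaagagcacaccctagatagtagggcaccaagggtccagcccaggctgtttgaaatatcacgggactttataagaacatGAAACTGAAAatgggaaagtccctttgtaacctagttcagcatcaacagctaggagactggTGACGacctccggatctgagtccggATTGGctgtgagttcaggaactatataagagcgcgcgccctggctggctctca
H2-K1: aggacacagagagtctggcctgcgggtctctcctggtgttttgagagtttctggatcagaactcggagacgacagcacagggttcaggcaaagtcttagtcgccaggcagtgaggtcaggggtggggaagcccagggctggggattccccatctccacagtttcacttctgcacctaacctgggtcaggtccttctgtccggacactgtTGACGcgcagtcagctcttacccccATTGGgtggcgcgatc
H2-D1: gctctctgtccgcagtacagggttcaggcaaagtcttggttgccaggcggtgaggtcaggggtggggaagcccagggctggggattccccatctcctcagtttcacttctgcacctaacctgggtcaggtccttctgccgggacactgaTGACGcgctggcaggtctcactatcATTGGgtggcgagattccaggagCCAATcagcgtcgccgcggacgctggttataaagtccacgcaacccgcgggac
H2-Aa: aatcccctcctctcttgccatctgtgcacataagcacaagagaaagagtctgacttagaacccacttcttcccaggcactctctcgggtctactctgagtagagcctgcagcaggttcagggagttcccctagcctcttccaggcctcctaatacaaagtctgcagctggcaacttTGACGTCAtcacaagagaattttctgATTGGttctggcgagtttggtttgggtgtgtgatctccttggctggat
H2-DMb2: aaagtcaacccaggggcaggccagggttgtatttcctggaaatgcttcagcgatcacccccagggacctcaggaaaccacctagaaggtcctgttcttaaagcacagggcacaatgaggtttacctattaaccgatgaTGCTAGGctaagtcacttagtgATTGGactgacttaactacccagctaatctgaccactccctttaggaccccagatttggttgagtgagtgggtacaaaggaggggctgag
H2-Ob: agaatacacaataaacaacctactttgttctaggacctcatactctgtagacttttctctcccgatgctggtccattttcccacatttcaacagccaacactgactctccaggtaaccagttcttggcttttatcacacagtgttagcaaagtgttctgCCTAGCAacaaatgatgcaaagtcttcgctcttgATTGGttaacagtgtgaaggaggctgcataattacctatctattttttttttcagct
In B2m, H2-K1 and H2-D1, TGACG begins 25 bases before a CCAAT that reads on the other strand, and in H2-Aa 26 bases before. H2-DMb2 holds CCTAGCA and CCAAT both on the other strand, their first bases in the window 22 apart, and H2-Ob holds CCTAGCA 34 bases before a CCAAT on the other strand.

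The RefSeq promoter table held 43 windows of 300 bases for 40 of the 56 members, and 32817 windows in all. Searched on both strands, CCAAT was in 79.1% of these and in 37.4% of all windows, TGACG in 39.5% of these and in 20.8%, CCTAGCA in 11.6% of these and in 4.1% and the interferon-stimulated element in 11.6% of these and in 3.43%. The STAT site TTCNNNGAA was in 9.3% of these and in 8.29%, the EBF1 core CCCNNGGG in 18.6% of these and in 13.7% and the ETS-type letters GGAAGTG in 4.65% of these and in 11%. Members of 1 gene family share promoter letters by descent, so these shares are a description.

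The classical class I chains were higher in both knockouts and higher in Pax5-KO than in Ebf1-KO. H2-K1, a heavy chain that shows peptide to CD8 T cells, read 175, 264 and 292 (WT), 785, 853 and 866 (Ebf1-KO), and 2828, 2689.6 and 2956 (Pax5-KO). H2-D1, the other classical heavy chain of this strain, read 335, 359 and 469.6 (WT), 683, 716 and 765 (Ebf1-KO), and 1679, 1591 and 2170.4 (Pax5-KO). B2m, the light chain of all class I molecules, read 3745, 4768 and 4468 (WT), 5822, 6094 and 7151 (Ebf1-KO), and 12585, 14653 and 15189 (Pax5-KO). For all 3 genes every Pax5-KO library lay above every Ebf1-KO library, and every Ebf1-KO library above every WT library.

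H2-K1 rose by a log2 fold change of 1.497 ± 0.17 in Ebf1-KO (adjusted p = 2.06e-07) and by 3.28 ± 0.17 in Pax5-KO (adjusted p = 1.21e-10). H2-D1 rose by 0.60 ± 0.16 (adjusted p = 0.000173) and 1.94 ± 0.16 (adjusted p = 1.44e-08). The overlapping H2-L entry read 79.4, 87.4 and 108 (WT), 157, 166 and 172 (Ebf1-KO), and 384, 374 and 485 (Pax5-KO) and rose by 0.54 and 1.89. B2m rose by 0.25 ± 0.15 (adjusted p = 0.00568) and 1.43 ± 0.15 (adjusted p = 1.79e-07). Ebf1-KO against Pax5-KO gave −1.80 ± 0.17 for H2-K1, −1.36 ± 0.16 for H2-D1 and −1.20 ± 0.15 for B2m (adjusted p = 4.92e-07, 6.59e-06 and 1.64e-05). Per kb of transcript, H2-D1 stood at 225 and H2-K1 at 149 reads per 10 M in WT, and at 1051 and 1727 in Pax5-KO. B2m was the most abundant member per kb in each genotype, at 5079 for WT, 7459.6 for Ebf1-KO and 16599 for Pax5-KO.

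Nlrc5, the class I transactivator, was higher in Pax5-KO and was not called in Ebf1-KO. It read 74.3, 93.7 and 95.5 (WT), 83.6, 102 and 93.6 (Ebf1-KO), and 595, 595 and 668 (Pax5-KO). The 3 Pax5-KO libraries lay far above the other 6, which overlapped. Its log2 fold change was 2.53 ± 0.15 in Pax5-KO (adjusted p = 6.75e-10) and −0.22 ± 0.15 in Ebf1-KO (adjusted p = 0.659), where quantile normalization called it lower (adjusted p = 0.0267). The direct comparison of Ebf1-KO with Pax5-KO gave −2.77 ± 0.15 (adjusted p = 1.28e-09).

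**Figure D1:**
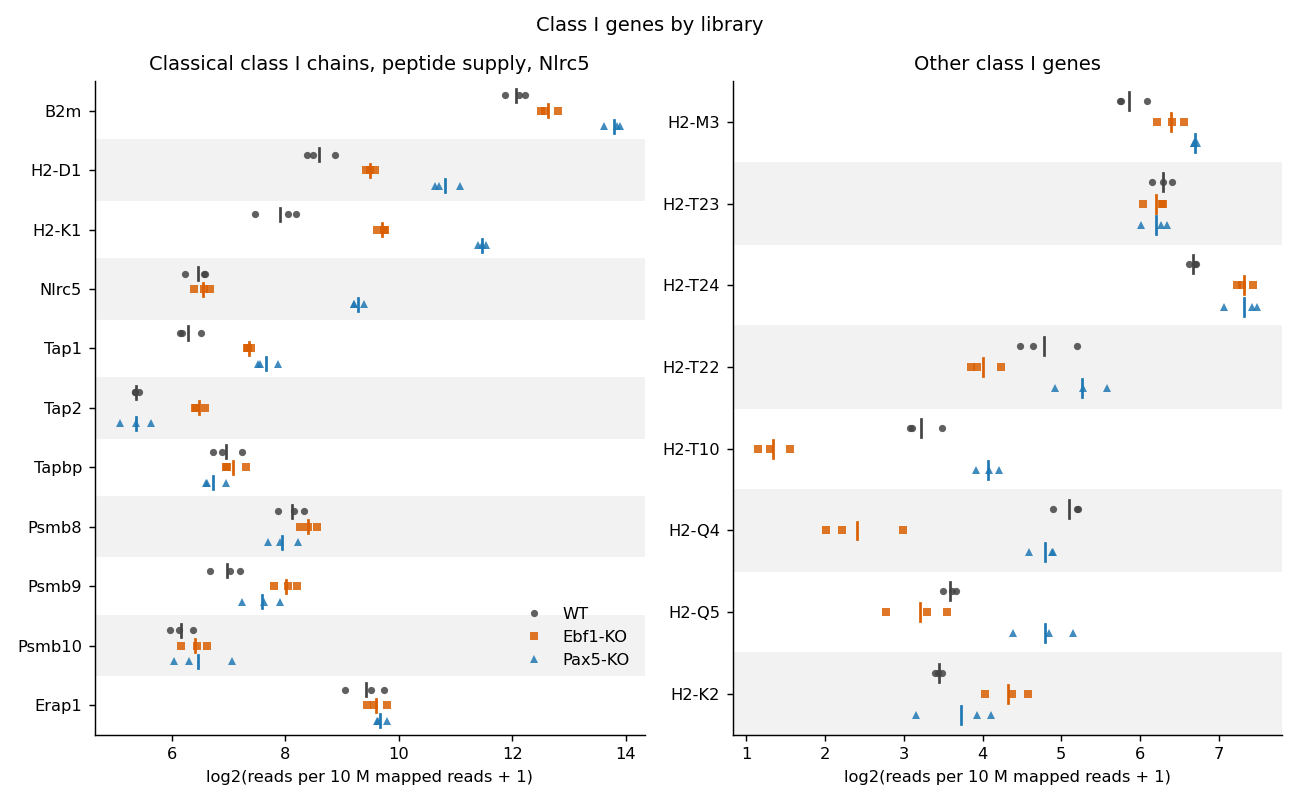
Level of class I genes in each RNA library, as reads per 10 M mapped reads on a log2(value + 1) axis, with 1 point per library and a bar at the mean of the 3 libraries of a genotype. B2m, H2-D1, H2-K1 and Nlrc5 stand highest in Pax5-KO, and H2-Q4 and H2-T10 stand lowest in Ebf1-KO.

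Of the 8 genes for class I peptide supply, Nlrc5 included, 3 were called higher in Ebf1-KO and 3 in Pax5-KO. Over all genes, the shares called higher were 40.8% and 34.7%. Tap1, a subunit of the peptide transporter, read 72.1, 70.1 and 91.03 (WT), 169, 159 and 161 (Ebf1-KO), and 184, 188 and 233 (Pax5-KO). Tap2, its partner, read 40.1, 39.8 and 42.03 (WT), 84.2, 94.9 and 85.4 (Ebf1-KO), and 33.04, 40.2 and 48.9 (Pax5-KO). Both subunits stood above WT in Ebf1-KO, while in Pax5-KO Tap1 stood above WT and Tap2 overlapped with it. Tap1 rose by 0.76 ± 0.16 in Ebf1-KO (adjusted p = 4.03e-05) and 1.09 ± 0.16 in Pax5-KO (adjusted p = 4.37e-06). Tap2 rose by 0.79 ± 0.18 in Ebf1-KO (adjusted p = 0.000112) and gave −0.29 ± 0.18 in Pax5-KO (adjusted p = 0.958), called lower with quantile normalization (adjusted p = 0.0184). The knockouts differed by 1.06 ± 0.18 for Tap2 (adjusted p = 0.000164) and −0.34 ± 0.16 for Tap1 (adjusted p = 0.191), the latter called with TMM scaling (adjusted p = 0.0214).

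Psmb9, a catalytic subunit of the immunoproteasome, read 102, 129 and 146 (WT), 221, 263 and 295 (Ebf1-KO), and 151, 197 and 238 (Pax5-KO). Both knockouts lay above WT, by 0.74 ± 0.19 in Ebf1-KO (adjusted p = 0.000282) and 0.35 ± 0.19 in Pax5-KO (adjusted p = 0.0159). The Pax5-KO call was lost with quantile normalization (adjusted p = 0.0531) and without WT 1 (adjusted p = 0.0766), Pax5-KO 2 (adjusted p = 0.0506) or Pax5-KO 3 (adjusted p = 0.0622). Between the knockouts Psmb9 was not called (0.38 ± 0.19, adjusted p = 0.119), but it was with libraries paired by number (adjusted p = 0.00291) or TMM scaling (0.0246). Psmb8, another catalytic subunit, read 234, 286 and 322 (WT), 305, 338 and 377 (Ebf1-KO), and 206, 239 and 297 (Pax5-KO). Ebf1-KO lay above Pax5-KO by 0.42 ± 0.17 (adjusted p = 0.0466), a call lost with a pseudocount of 0.1 (adjusted p = 0.0534), with no filter on low values (adjusted p = 0.0606) and without any 1 of WT 2, Ebf1-KO 1, Ebf1-KO 2, Ebf1-KO 3, Pax5-KO 1 or Pax5-KO 2 (adjusted p from 0.053 to 0.178). Against WT it was called neither in Ebf1-KO (−0.02 ± 0.17, adjusted p = 0.167) nor in Pax5-KO (−0.46 ± 0.17, adjusted p = 0.384). Pairing called it higher in Ebf1-KO (adjusted p = 0.015), where its change was that of the median gene, and TMM scaling called it lower in Pax5-KO (adjusted p = 0.000947).

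Psmb10, the remaining immunoproteasome subunit, read 61.97, 69.4 and 82.3 (WT), 70.4, 86.5 and 97.4 (Ebf1-KO), and 65.2, 77.96 and 133 (Pax5-KO). Tapbp (tapasin, which joins TAP to class I) read 105, 117 and 150.3 (WT), 124, 123 and 158 (Ebf1-KO), and 96.8, 97.9 and 123 (Pax5-KO). Erap1, a peptidase that trims peptides in the endoplasmic reticulum, read 528, 726 and 849.9 (WT), 698, 753 and 892 (Ebf1-KO), and 785, 790.0 and 885 (Pax5-KO). The groups overlapped for all 3 genes, and none was called in any comparison. Their changes in Ebf1-KO were −0.06 ± 0.24, −0.18 ± 0.18 and −0.13 ± 0.17 (adjusted p = 0.397, 0.571 and 0.392), and in Pax5-KO 0.03 ± 0.24, −0.50 ± 0.18 and −0.03 ± 0.17 (adjusted p = 0.303, 0.331 and 0.233). Pairing called Erap1 in Pax5-KO (adjusted p = 0.0402) and Tapbp higher in Ebf1-KO than in Pax5-KO (0.0198), and TMM scaling called Tapbp lower in Pax5-KO (0.00243).

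Of the 29 genes of the other class I loci, 9 were tested, with 3 higher and 4 lower in Ebf1-KO and 4 higher in Pax5-KO. Among all genes, 40.8% were called higher and 14.4% lower in Ebf1-KO, and 34.7% higher in Pax5-KO. H2-Q4, of the Qa group, read 35.9, 35.9 and 28.9 (WT), 3.02, 6.96 and 3.62 (Ebf1-KO), and 23.1, 28.8 and 28.4 (Pax5-KO). It fell by 3.01 ± 0.26 on the log2 scale in Ebf1-KO (adjusted p = 2.83e-07) and gave −0.59 ± 0.26 in Pax5-KO (adjusted p = 0.327), although there too every library lay below every WT library and DESeq2 called it (adjusted p = 0.0403). H2-T10, of the T region, read 7.57, 10.2 and 7.45 (WT), 1.93, 1.47 and 1.21 (Ebf1-KO), and 15.95, 17.4 and 14.1 (Pax5-KO). The 3 genotypes did not overlap, with Ebf1-KO lowest and Pax5-KO highest. H2-T10 fell by 2.20 ± 0.23 in Ebf1-KO (adjusted p = 4.52e-06) and rose by 0.57 ± 0.23 in Pax5-KO (adjusted p = 0.00747), a call lost with TMM scaling (adjusted p = 0.0509). Ebf1-KO lay below Pax5-KO for H2-Q4 as well (−2.43 ± 0.26, adjusted p = 2.02e-06).

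H2-T22, a ligand of some gamma-delta T-cell receptors, read 21.3, 23.95 and 35.8 (WT), 13.5, 14.3 and 17.8 (Ebf1-KO), and 29.3, 37.7 and 46.8 (Pax5-KO). Ebf1-KO lay below both other genotypes, and Pax5-KO overlapped with WT. H2-T22 fell by 1.08 ± 0.24 in Ebf1-KO (adjusted p = 0.0141), a call lost without WT 3 (adjusted p = 0.0803) or Ebf1-KO 1 (adjusted p = 0.0516). In Pax5-KO it gave 0.21 ± 0.24 (adjusted p = 0.114), called with libraries paired by number (adjusted p = 0.0224). The H2-T9 entry on the same ground read 21.03, 23.6 and 35.2 (WT), 13.5, 14.3 and 17.1 (Ebf1-KO), and 29.3, 37.7 and 45.6 (Pax5-KO) and fell by 1.07 ± 0.24 in Ebf1-KO (adjusted p = 0.013), a call lost without WT 3 (adjusted p = 0.0752). Pairing called H2-T9 in Pax5-KO too (adjusted p = 0.0214). H2-Q5 read 11.2, 11.6 and 10.3 (WT), 10.7, 5.86 and 8.79 (Ebf1-KO), and 34.5, 19.96 and 27.7 (Pax5-KO). Its Pax5-KO libraries stood above all others (0.93 ± 0.25, adjusted p = 0.00126), and Ebf1-KO overlapped with WT (−0.69 ± 0.25, adjusted p = 0.219, called lower with TMM scaling at adjusted p = 0.0411).

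H2-M3, which presents formylated peptides of bacteria, read 53, 52.5 and 67.1 (WT), 92.95, 73.7 and 83.8 (Ebf1-KO), and 102, 102 and 105 (Pax5-KO). Both knockouts lay above WT, by 0.23 ± 0.17 in Ebf1-KO (adjusted p = 0.0142) and 0.56 ± 0.17 in Pax5-KO (adjusted p = 0.000788). The Ebf1-KO call was lost with TMM scaling (adjusted p = 0.211) and without WT 2 (adjusted p = 0.0641) or Ebf1-KO 1 (adjusted p = 0.0609). H2-T24 read 97.9, 104 and 103 (WT), 149, 172 and 157 (Ebf1-KO), and 134, 170.2 and 179 (Pax5-KO). It too lay above WT in both, by 0.34 ± 0.15 (adjusted p = 0.00245) and 0.37 ± 0.15 (adjusted p = 0.00309). Quantile normalization ended both H2-T24 calls (adjusted p = 0.0774 and 0.0519). H2-K2 read 9.53, 10.2 and 9.83 (WT), 22.8, 15.4 and 19.7 (Ebf1-KO), and 14.2, 7.92 and 16.2 (Pax5-KO). It was higher in Ebf1-KO by 0.58 ± 0.26 (adjusted p = 0.00923), a call lost with TMM scaling (adjusted p = 0.0595), and overlapped with WT in Pax5-KO. Pairing by number called it higher in Ebf1-KO than in Pax5-KO (adjusted p = 0.0372).

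H2-T23 (Qa-1, a ligand of the NKG2A receptor) read 70.4, 77.5 and 83.9 (WT), 64.6, 76.95 and 77.1 (Ebf1-KO), and 76.3, 63.4 and 80.3 (Pax5-KO). The 3 genotypes overlapped and it was called in no comparison, with −0.39 ± 0.17 in Ebf1-KO (adjusted p = 0.695) and −0.36 ± 0.17 in Pax5-KO (adjusted p = 0.723). TMM scaling called it lower in both (adjusted p = 0.0198 and 0.047). H2-Ke6, the dehydrogenase gene, read 27.8, 40.2 and 49.8 (WT), 39.9, 48.4 and 58.1 (Ebf1-KO), and 57.8, 56.7 and 82.6 (Pax5-KO). Its Pax5-KO libraries lay above every WT library, and Ebf1-KO overlapped with both. It was higher in Pax5-KO by 0.47 ± 0.24 (adjusted p = 0.0188), a call lost with quantile normalization (adjusted p = 0.101) and without WT 1 (adjusted p = 0.098) or Pax5-KO 3 (adjusted p = 0.0731). Pairing called it lower in Ebf1-KO than in Pax5-KO (adjusted p = 0.0353), and so did TMM scaling (0.0443).

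The class II genes went different ways within each knockout. Ciita, the class II transactivator, read 0.561, 1.06 and 2.70 (WT), 4.40, 3.66 and 6.04 (Ebf1-KO), and 0.855, 1.27 and 1.57 (Pax5-KO). These levels are low, with 104 reads over the 9 libraries, and the Ebf1-KO libraries lay above the other 6. Ciita rose by 0.99 ± 0.32 in Ebf1-KO against WT (adjusted p = 0.00273) and stood 1.30 ± 0.32 above Pax5-KO (adjusted p = 0.00364). The rise over WT was not called by DESeq2 on the recovered reads (adjusted p = 0.0764) or with quantile normalization (0.125). Pax5-KO overlapped with WT (−0.32 ± 0.32, adjusted p = 0.919, called lower with quantile normalization at adjusted p = 0.0419).

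The chains of the class II molecule I-A went opposite ways in Ebf1-KO. H2-Aa, the alpha chain, read 0, 0 and 0.159 (WT), 13.2, 12.5 and 10.7 (Ebf1-KO), and 0, 0 and 0.224 (Pax5-KO). H2-Ab1, the beta chain, read 7.57, 6.34 and 3.17 (WT), 1.93, 1.83 and 2.41 (Ebf1-KO), and 0 in each of 3 libraries (Pax5-KO). H2-Aa was thus read almost only in Ebf1-KO, with 1 read in the 3 WT libraries together, while H2-Ab1 was highest in WT and not read in Pax5-KO. H2-Aa rose by 3.33 ± 0.24 in Ebf1-KO (adjusted p = 3.68e-09) and gave −0.25 ± 0.24 in Pax5-KO (adjusted p = 0.939). Before the median was taken off, the Pax5-KO value was 0.03, so it shows no fall, and both values depend on the added 1. H2-Ab1 fell by 1.38 ± 0.28 in Ebf1-KO (adjusted p = 0.00477). In Pax5-KO, taking 3 reads over the group as the floor, it was at least 29.6-fold lower than in WT (adjusted p = 1.41e-06), and Ebf1-KO was at least 10.7-fold higher than Pax5-KO (adjusted p = 0.000312). H2-Eb1, the beta chain of I-E, was not tested and read 0.280, 0.352 and 0 (WT), 1.38, 1.47 and 2.07 (Ebf1-KO), and 0 in each of 3 libraries (Pax5-KO). The alpha chain of I-E, which C57BL/6 mice do not make, is in the table as H2-Ea-ps and had no read.

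Of the 9 genes that load class II or control it, Ciita included, 8 were tested, with 5 higher and 2 lower in Ebf1-KO and 4 higher and 3 lower in Pax5-KO. Among all genes, 40.8% were called higher and 14.4% lower in Ebf1-KO, and 34.7% higher and 11.9% lower in Pax5-KO. H2-DMa, the alpha chain of the DM molecule that exchanges peptides on class II, read 1.96, 1.41 and 0.793 (WT), 55, 56.8 and 76.4 (Ebf1-KO), and 8.54, 7.92 and 10.2 (Pax5-KO). The 3 genotypes did not overlap, with Ebf1-KO highest. H2-DMa rose by 4.44 ± 0.24 in Ebf1-KO (adjusted p = 2.07e-10) and by 1.79 ± 0.24 in Pax5-KO (adjusted p = 4.66e-06). H2-DMb2, a DM beta chain, read 0.280, 0.704 and 0.317 (WT), 4.67, 5.13 and 4.66 (Ebf1-KO), and 8.54, 11.7 and 14.7 (Pax5-KO). Here Pax5-KO was highest, again with no overlap, so the order of the knockouts differed between the DM chains. H2-DMb2 rose by 1.73 ± 0.25 in Ebf1-KO (adjusted p = 5.39e-06) and 2.85 ± 0.25 in Pax5-KO (adjusted p = 6.14e-08). Ebf1-KO against Pax5-KO gave 2.63 ± 0.24 for H2-DMa and −1.14 ± 0.25 for H2-DMb2 (adjusted p = 3.18e-07 and 0.00306). H2-DMb1, a near-identical copy of H2-DMb2, was not tested and read 0 in each of 3 libraries (WT), 1.93, 4.03 and 2.59 (Ebf1-KO), and 2.56, 3.80 and 2.81 (Pax5-KO). Taking 3 reads over the WT group as the floor, it was at least 12.1-fold higher in Ebf1-KO and at least 12.96-fold higher in Pax5-KO.

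The DO molecule restrains DM and is found mainly in B cells. H2-Ob, its beta chain, read 240.0, 244 and 292 (WT), 71.5, 92.7 and 125 (Ebf1-KO), and 15.1, 20.6 and 21.6 (Pax5-KO). H2-Oa, its alpha chain, read 16.3, 19.4 and 17.3 (WT), 31.6, 31.1 and 35.5 (Ebf1-KO), and 31.9, 30.7 and 34.6 (Pax5-KO). The beta chain stepped down from WT to Ebf1-KO to Pax5-KO with no overlap, while the alpha chain was higher in both knockouts. H2-Ob fell by 1.75 ± 0.21 in Ebf1-KO (adjusted p = 3.49e-05) and by 3.98 ± 0.21 in Pax5-KO (adjusted p = 1.34e-09), and the knockouts differed by 2.21 ± 0.21 (adjusted p = 4.78e-07). H2-Oa rose by 0.55 ± 0.18 (adjusted p = 0.00105) and 0.56 ± 0.18 (adjusted p = 0.00164), neither of which was called with quantile normalization (adjusted p = 0.0727 and 0.0592). Per kb of transcript H2-Ob stood at 97.2 reads per 10 M for WT, 36.2 for Ebf1-KO and 7.17 for Pax5-KO, and H2-Oa at 16.9, 31.4 and 31.1.

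Cd74, the invariant chain, read 264, 167 and 179 (WT), 440.3, 389 and 418 (Ebf1-KO), and 349, 280.5 and 354 (Pax5-KO). Both knockouts lay above WT, by 0.75 ± 0.17 in Ebf1-KO (adjusted p = 0.000101) and 0.43 ± 0.17 in Pax5-KO (adjusted p = 0.00387), and the Pax5-KO call was lost with TMM scaling (adjusted p = 0.0942). Pairing by number called Cd74 higher in Ebf1-KO than in Pax5-KO (adjusted p = 0.0191). Ctss, the cathepsin that cuts the invariant chain in B cells, read 219, 239.5 and 271 (WT), 138, 136 and 126 (Ebf1-KO), and 134, 138 and 113 (Pax5-KO). It fell by 1.16 ± 0.15 in Ebf1-KO (adjusted p = 0.000171) and 1.19 ± 0.15 in Pax5-KO (adjusted p = 0.00013), and the knockouts overlapped (0.01 ± 0.15). Ifi30 (GILT, which reduces disulfide bonds of antigens) read 49.1, 36.98 and 34.3 (WT), 44.8, 47.3 and 42.9 (Ebf1-KO), and 17.9, 17.4 and 22.8 (Pax5-KO). Pax5-KO lay below the other 6 libraries, with a fall of 1.28 ± 0.20 against WT (adjusted p = 0.000788), while Ebf1-KO overlapped with WT (−0.13 ± 0.20, adjusted p = 0.467). The knockouts differed by 1.14 ± 0.20 (adjusted p = 0.000217).

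**Figure D2:**
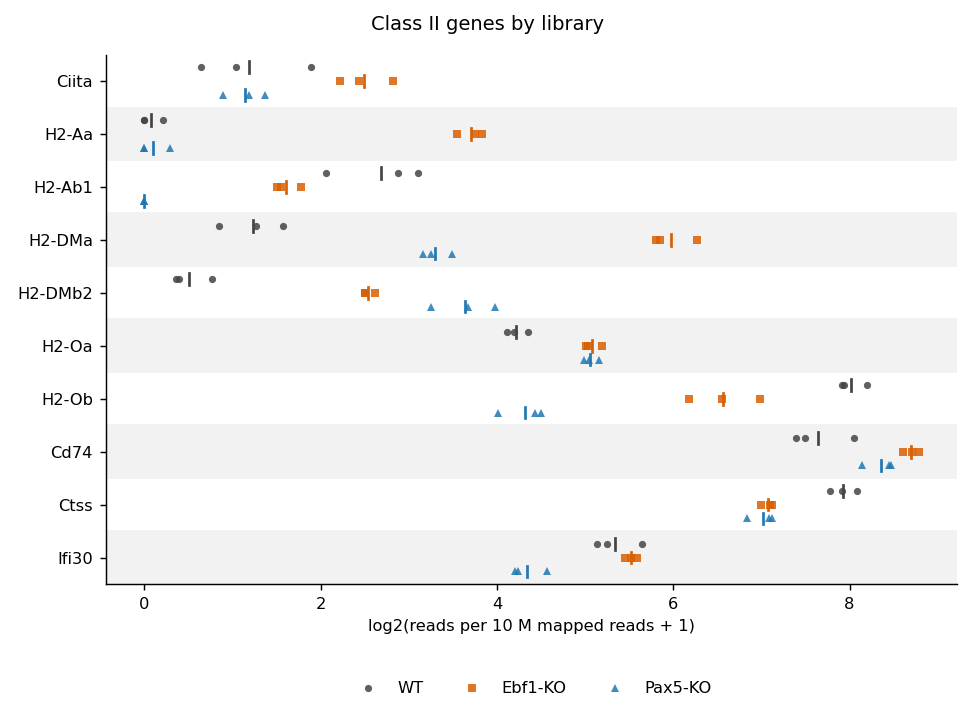
Level of class II genes in each RNA library, as reads per 10 M mapped reads on a log2(value + 1) axis, with 1 point per library and a bar at the mean of the 3 libraries of a genotype. H2-Aa and H2-DMa stand highest in Ebf1-KO, H2-Ob steps down from WT to Ebf1-KO to Pax5-KO, and H2-Ab1 is at 0 in Pax5-KO.

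**Figure D3:**
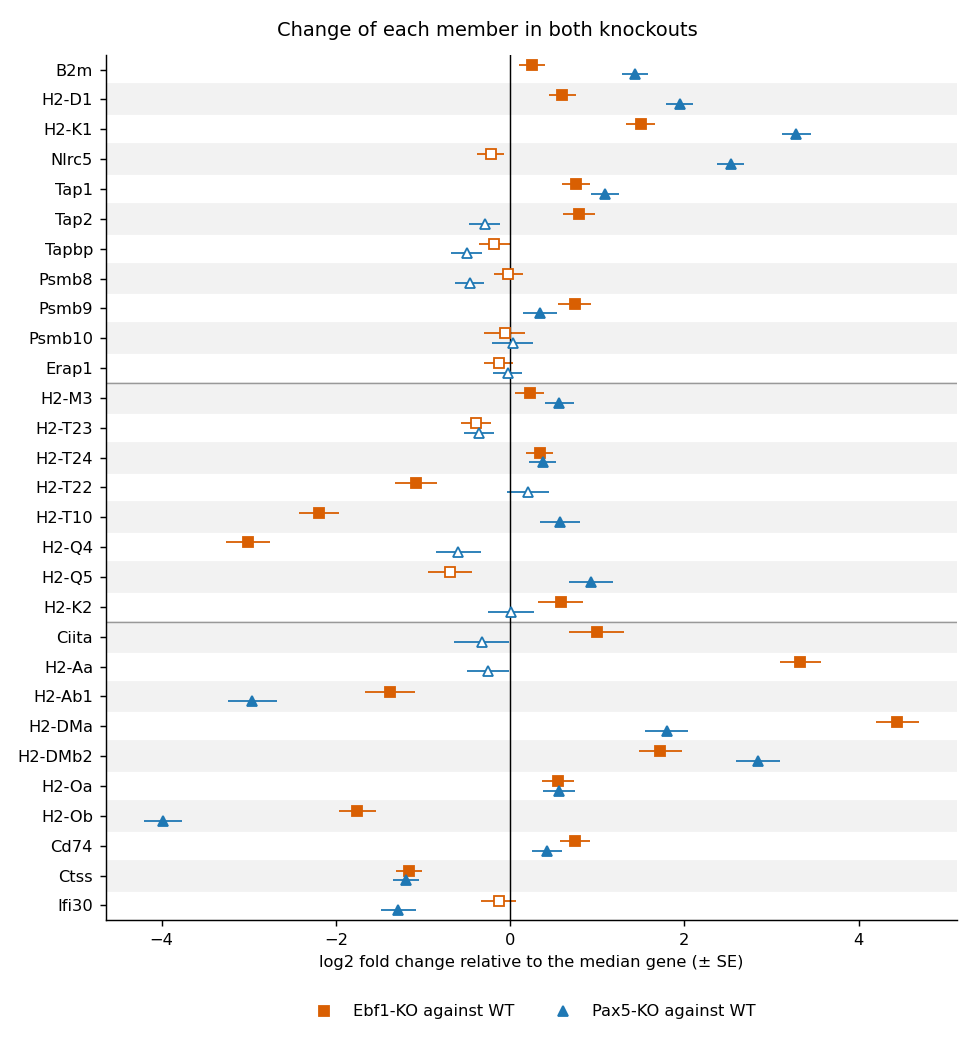
Log2 fold change of each tested member against WT in Ebf1-KO (squares) and Pax5-KO (triangles), relative to the median gene, with bars of 1 SE from limma and filled symbols where the adjusted p was under 0.05; H2-L, H2-T9 and H2-Ke6 are left out. H2-DMa and H2-Aa lie far right in Ebf1-KO, H2-K1, H2-DMb2 and Nlrc5 far right in Pax5-KO, and H2-Ob to the left in both. In Ebf1-KO, H2-Q4 (−3.01) and H2-T10 (−2.20) lie farther left than H2-Ob (−1.75). The fitted Pax5-KO value of H2-Ab1, which had no read there, depends on the added 1. So do the values of H2-Aa, which was almost unread in WT and Pax5-KO.

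Other genes of these pathways were counted by list. For these lists and the marker lists, the shares over all genes were 40.8% higher and 14.4% lower in Ebf1-KO. In Pax5-KO they were 34.7% higher and 11.9% lower. Of 12 class II regulators (Irf8 and Spi1 among them), 3 higher and 1 lower were called in Ebf1-KO and 1 higher and 2 lower in Pax5-KO, with median changes of −0.35 and −0.38. Irf8, a factor of B and dendritic cells, averaged 364 (WT), 179 (Ebf1-KO), and 93.2 (Pax5-KO) and fell by 1.37 and 2.25. Spi1 (PU.1, of myeloid and B cells) averaged 138 (WT), 285 (Ebf1-KO), and 268 (Pax5-KO) and rose by 0.75 and 0.64. Of 12 further class II route genes tested, 5 higher and 2 lower were called in Ebf1-KO and 8 higher and 1 lower in Pax5-KO. Ctsl, a cathepsin, averaged 3.17 (WT), 915 (Ebf1-KO), and 220.0 (Pax5-KO) and rose by 7.48 and 5.46. Cd9, a tetraspanin, averaged 0.106 (WT), 89.3 (Ebf1-KO), and 84.7 (Pax5-KO) and rose by 6.03 and 6.003.

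Of 14 further class I route genes, 6 were called higher in Ebf1-KO and 7 in Pax5-KO. Tapbpl, a tapasin-related peptide editor, averaged 29.6 (WT), 65.5 (Ebf1-KO), and 45.5 (Pax5-KO) and rose by 0.82 and 0.33. Of 9 genes of interferon-gamma signalling, 6 were higher in Ebf1-KO, and 2 higher and 1 lower in Pax5-KO. Socs1, an inhibitor of JAK kinases, averaged 2.59 (WT), 23.04 (Ebf1-KO), and 20.6 (Pax5-KO) and rose by 2.33 and 2.27. Of 9 interferon-response genes tested, 5 higher and 3 lower were called in Ebf1-KO and 3 higher and 4 lower in Pax5-KO. Ifit2, an interferon-induced gene, averaged 128 (WT), 4.55 (Ebf1-KO), and 32.5 (Pax5-KO), and Gbp2, a guanylate-binding protein gene, 55.2 (WT), 17.5 (Ebf1-KO), and 3.68 (Pax5-KO), both lower in each knockout. Of 5 co-stimulatory genes tested, 4 higher and 1 lower were called in Ebf1-KO and 3 higher in Pax5-KO. Cd86, a ligand of CD28, averaged 0.106 (WT), 30.01 (Ebf1-KO), and 29.2 (Pax5-KO), and Cd80, its relative, 1.93 (WT), 31.5 (Ebf1-KO), and 1.29 (Pax5-KO).

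Markers of other cells that use class II or that could be in the cultures moved as well. Of 5 dendritic-cell markers tested, 4 higher and 1 lower were called in Ebf1-KO and 3 higher and 1 lower in Pax5-KO, and the 9 listed, of which the interferon-response list also holds Bst2, summed to 258 to 341 (WT), 495 to 606 (Ebf1-KO), and 364 to 465 (Pax5-KO). Itgax (CD11c) averaged 0 (WT), 62.1 (Ebf1-KO), and 2.61 (Pax5-KO), and Siglech, of plasmacytoid dendritic cells, 0.146 (WT), 30.3 (Ebf1-KO), and 83.1 (Pax5-KO). Of 5 macrophage markers tested, 2 higher and 2 lower were called in Ebf1-KO and 3 higher in Pax5-KO, and the 8 in the table summed to 34.8 to 51.7 (WT), 477 to 685 (Ebf1-KO), and 759 to 902 (Pax5-KO). Adgre1 (F4/80) averaged 0.458 (WT), 560.1 (Ebf1-KO), and 2.92 (Pax5-KO), Mrc1 (the mannose receptor) 14.8 (WT), 3.71 (Ebf1-KO), and 781 (Pax5-KO), and C1qa and C1qb were at 0 in all libraries. Of 8 markers of innate lymphoid and NK cells, 8 were higher in Ebf1-KO and 7 in Pax5-KO, with sums of 10.1 to 12.1 (WT), 1218 to 1225 (Ebf1-KO), and 76.9 to 141 (Pax5-KO). Of 3 T-cell markers tested, 3 higher in Ebf1-KO and 1 higher in Pax5-KO were called, and the 6 in the table summed to 29.8 to 39.8 (WT), 291 to 341 (Ebf1-KO), and 180.0 to 265 (Pax5-KO). The 8 stromal markers listed summed to 45.1 to 207 (WT), 10.4 to 93.1 (Ebf1-KO), and 6.84 to 138 (Pax5-KO), with Dcn at 0 throughout. The part of these markers' changes in the members' values was not tested.

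Open chromatin was measured over 14377 regions bound by EBF1, PAX5 or both in the authors' peak sets, placed on mm10. A member was the nearest gene for 24 regions, near 18 members: 9 bound by EBF1 only, 6 by both and 9 by PAX5 only. Signal is tags per 10 M. Over the 14365 regions tested the median log2 change was −0.78 for Ebf1-KO and −0.75 for Pax5-KO against WT, and −0.02 between the knockouts. The share of ATAC tags in bound regions was 1.52 to 2.31% for WT, 0.930 to 1.11% for Ebf1-KO and 0.825 to 1.02% for Pax5-KO, and its part in the differences was not tested. Changes of regions are given relative to these medians, and calls again test the change before that step. In Ebf1-KO 11 of 24 member regions were called lower and 1 higher, against 51.1% and 3.28% of all regions. In Pax5-KO 13 were lower and 1 higher, against 51.5% and 2.11%. The members' counts are thus near the background. Between the knockouts 5 member regions were higher in Ebf1-KO and 1 lower, against 9.06% and 12.6%.

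The calls against WT depend on the scaling. With TMM, 6 member regions were lower and 9 higher in Ebf1-KO, and 5 lower and 2 higher in Pax5-KO. The regions higher in Ebf1-KO with TMM were those of H2-DMb1, H2-K1, Erap1, H2-Oa, B2m and H2-D1, Tap2 intron 5 and the farther H2-DMb2 regions. Over all regions TMM took the share of higher among the calls from 6.03% to 40.6% in Ebf1-KO and from 3.93% to 39.3% in Pax5-KO. Regions called lower under both scalings were those of Ciita intron 8, Cd74 (both upstream regions), Psmb9, Ifi30 and the H2-DMb2 promoter in Ebf1-KO, and those of Ciita intron 8, Cd74 at 11.7 kb, Psmb9, H2-Ob and H2-Q4 in Pax5-KO. Quantile normalization also ended the calls for Ifi30 and the H2-DMb2 promoter in Ebf1-KO (adjusted p = 0.409 and 0.587) and for Psmb9 in Pax5-KO (adjusted p = 0.0611).

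The largest loss among the 24 regions was at one bound by PAX5 in intron 8 of Ciita (chr16:10508791-10509039). The authors' annotation puts it 19.1 kb past a Ciita start other than that of the gene span given earlier. The region is shown for the EBF1 core letters CCCNNGGG that it holds, in capitals, on the plus strand, from RefSeq on GRCm38.p6.
Ciita intron 8: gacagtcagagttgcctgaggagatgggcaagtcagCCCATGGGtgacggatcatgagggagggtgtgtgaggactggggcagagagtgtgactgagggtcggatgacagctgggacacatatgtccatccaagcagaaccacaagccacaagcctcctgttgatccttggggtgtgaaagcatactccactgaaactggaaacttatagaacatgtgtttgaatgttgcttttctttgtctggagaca
CCCNNGGG was in 8.11% of the 5033 PAX5-only regions, all of this length, and in 57.8% of EBF1-only regions. The PAX5 core letters GCNTGAC, searched on both strands, had no match in the Ciita region and were in 21.2% of PAX5-only regions. The Ciita region read 33.3, 21.6 and 23.8 (WT), 0.390, 1.82 and 2.56 (Ebf1-KO), and 0.710, 2.12 and 2.17 (Pax5-KO). Both knockouts lay far below WT and overlapped with each other, at −2.70 ± 0.34 in Ebf1-KO (adjusted p = 2.5e-15) and −2.64 ± 0.34 in Pax5-KO (adjusted p = 1.58e-14). Ciita RNA, by contrast, was higher in Ebf1-KO and overlapped with WT in Pax5-KO. A region near a Ciita start (0.786 kb past it), bound by both factors, read 3.27, 4.84 and 2.33 (WT), 0, 0.910 and 3.52 (Ebf1-KO), and 3.88, 1.86 and 3.04 (Pax5-KO). The genotypes overlapped there, and the lower call in Ebf1-KO (−0.31 ± 0.40, adjusted p = 0.015) was lost without WT 2 (adjusted p = 0.0769) or Ebf1-KO 1 (adjusted p = 0.266). TMM scaling ended it as well (adjusted p = 0.294).

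Cd74 had 3 regions. The PAX5 region 11.7 kb upstream read 28.7, 16.5 and 23.8 (WT), 4.28, 5.45 and 6.08 (Ebf1-KO), and 3.53, 1.59 and 1.74 (Pax5-KO). It was lower in both knockouts, at −1.13 ± 0.30 in Ebf1-KO (adjusted p = 5.25e-08) and −2.14 ± 0.30 in Pax5-KO (adjusted p = 7.16e-14), with no overlap between any of the genotypes. Ebf1-KO stood 0.99 ± 0.30 above Pax5-KO (adjusted p = 0.013), a call lost with a pseudocount of 5 (adjusted p = 0.0677) and without Ebf1-KO 3 (adjusted p = 0.0723), Pax5-KO 2 (adjusted p = 0.085) or Pax5-KO 3 (adjusted p = 0.054). The EBF1 region 4.68 kb upstream read 5.88, 3.99 and 4.92 (WT), 0.390, 0 and 0.640 (Ebf1-KO), and 4.23, 3.71 and 6.52 (Pax5-KO). It was far lower in Ebf1-KO, with no overlap (−1.38 ± 0.37, adjusted p = 3.51e-07), gave 0.70 ± 0.37 in Pax5-KO (adjusted p = 0.929), and differed between the knockouts by −2.09 ± 0.37 (adjusted p = 3.5e-06). The EBF1 region in intron 1 was called in no comparison. Cd74 RNA was higher than in WT in both knockouts.

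In intron 1 of H2-Ob a region bound by both factors read 15.7, 9.97 and 14.2 (WT), 6.23, 5.14 and 6.72 (Ebf1-KO), and 2.12, 2.12 and 4.78 (Pax5-KO). The genotypes did not overlap and stood in the order of H2-Ob RNA, with WT highest and Pax5-KO lowest. The change was −0.23 ± 0.31 in Ebf1-KO (adjusted p = 0.00372) and −1.13 ± 0.31 in Pax5-KO (adjusted p = 2.01e-07). The Ebf1-KO call was lost with TMM scaling (adjusted p = 0.61) and with quantile normalization (adjusted p = 0.598), which turned its sign. The knockouts differed by 0.89 ± 0.31 (adjusted p = 0.0319), a call lost with a pseudocount of 5 (adjusted p = 0.0802) and without any 1 of Ebf1-KO 1, Ebf1-KO 3, Pax5-KO 1 or Pax5-KO 2 (adjusted p from 0.0782 to 0.154). At the start of H2-Q4 an EBF1 region read 21.6, 18.5 and 20.7 (WT), 6.23, 8.47 and 10.2 (Ebf1-KO), and 6.70, 4.51 and 7.38 (Pax5-KO). Both knockouts lay below WT, at −0.43 ± 0.28 (adjusted p = 0.000104) and −0.84 ± 0.28 (adjusted p = 8.69e-07), while H2-Q4 RNA was called lower in Ebf1-KO and not in Pax5-KO. TMM scaling and quantile normalization ended the Ebf1-KO call at this region (adjusted p = 0.196 and 0.433).

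H2-DMb2 had 3 regions. The one 0.369 kb before the start, bound by both factors, read 13.7, 9.69 and 10.1 (WT), 3.89, 2.72 and 2.88 (Ebf1-KO), and 3.88, 4.24 and 8.25 (Pax5-KO). It was below WT in both knockouts, at −0.76 ± 0.31 (adjusted p = 1.43e-05) and −0.22 ± 0.31 (adjusted p = 0.00707), whereas H2-DMb2 RNA was higher in both. TMM scaling and quantile normalization ended the Pax5-KO call (adjusted p = 0.773 and 0.784), and quantile normalization ended the Ebf1-KO call (adjusted p = 0.587). The region 10.0 kb upstream (chr17:34135286-34135556) lies within the H2-DMa gene, though H2-DMb2 is its nearest gene in the authors' annotation. The regions 2.27 kb (both factors) and 10.0 kb (EBF1) upstream read 14.5 to 19.4 and 17.6 to 20.9 in WT and 9.12 to 11.99 and 11.3 to 12.6 in Pax5-KO. They were called lower there (adjusted p = 0.0252 and 0.0384) by no more than the median region (0.07 ± 0.26 and 0.13 ± 0.26). The call at the nearer region was lost without any 1 of WT 3, Pax5-KO 2 or Pax5-KO 3 (adjusted p from 0.0726 to 0.115), and that at the farther without any 1 of WT 1, WT 3, Ebf1-KO 2, Pax5-KO 1, Pax5-KO 2 or Pax5-KO 3 (adjusted p from 0.052 to 0.0927). The PAX5 region 9.62 kb past the start of H2-DMb1 read 0.650, 0.280 and 0.520 (WT), 1.17, 3.03 and 1.28 (Ebf1-KO), and 2.47, 2.65 and 1.74 (Pax5-KO). It was called higher in Ebf1-KO (1.66 ± 0.39, adjusted p = 0.047) and in Pax5-KO (1.89 ± 0.39, adjusted p = 0.00919). The Ebf1-KO call was lost with a pseudocount of 5 (adjusted p = 0.0595), with only the 2 groups compared (adjusted p = 0.0565) and without any 1 of WT 1, WT 2, WT 3, Ebf1-KO 2 or Pax5-KO 2 (adjusted p from 0.0507 to 0.267).

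Of the regions near class I genes, 3 differed between the knockouts. The PAX5 region in intron 1 of B2m read 10.4, 10.8 and 10.6 (WT), 9.73, 11.8 and 11.5 (Ebf1-KO), and 3.88, 5.04 and 5.21 (Pax5-KO). It was lower in Pax5-KO with no overlap (−0.29 ± 0.28, adjusted p = 0.00129; with TMM 0.545), overlapped with WT in Ebf1-KO (0.82 ± 0.28, adjusted p = 0.911) and differed between the knockouts by 1.10 ± 0.28 (adjusted p = 0.00252). B2m RNA was highest in Pax5-KO. The PAX5 region 3.85 kb before H2-D1 read 11.8, 8.55 and 8.29 (WT), 12.8, 11.5 and 15.4 (Ebf1-KO), and 6.70, 6.10 and 9.12 (Pax5-KO). A region bound by both factors in intron 5 of Tap2 read 15.7, 12.2 and 13.7 (WT), 15.97, 20.3 and 21.1 (Ebf1-KO), and 8.47, 10.1 and 13.5 (Pax5-KO). Both were higher in Ebf1-KO than in Pax5-KO, by 0.81 ± 0.28 (adjusted p = 0.031) and 0.82 ± 0.27 (adjusted p = 0.0203), and neither was called against WT. The H2-D1 and Tap2 differences were lost with quantile normalization (adjusted p = 0.0501 and 0.116). The H2-D1 difference was also lost without any 1 of Ebf1-KO 1, Ebf1-KO 3, Pax5-KO 1 or Pax5-KO 2 (adjusted p from 0.0634 to 0.148), and the Tap2 difference without any 1 of Ebf1-KO 2, Ebf1-KO 3, Pax5-KO 1 or Pax5-KO 2 (adjusted p from 0.0767 to 0.101).

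A PAX5 region 15.98 kb from the start of Psmb9 read 12.4, 10.8 and 7.51 (WT), 1.56, 1.51 and 1.92 (Ebf1-KO), and 2.82, 2.65 and 1.74 (Pax5-KO). It was lower in both knockouts, at −1.28 ± 0.35 (adjusted p = 2.38e-07) and −0.97 ± 0.35 (adjusted p = 1.57e-05), while Psmb9 RNA was higher in both. The EBF1 region at the H2-K1 promoter, 0.261 kb before the start, read 12.4, 3.99 and 8.55 (WT), 7.79, 8.77 and 5.12 (Ebf1-KO), and 9.52, 5.83 and 6.52 (Pax5-KO). The genotypes overlapped and it was called in no comparison (adjusted p = 0.821 for Ebf1-KO and 0.845 for Pax5-KO), but TMM called it higher in both (adjusted p = 0.0334 and 0.0333). The EBF1 region before Erap1 read 13.7, 11.7 and 13.98 (WT), 13.2, 12.1 and 9.92 (Ebf1-KO), and 9.52, 7.69 and 5.65 (Pax5-KO). It was called lower in Pax5-KO (adjusted p = 0.019) by as much as the median region (0.01 ± 0.27), a call lost without WT 3 (adjusted p = 0.0688) or Pax5-KO 3 (adjusted p = 0.128).

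In intron 1 of Ifi30 an EBF1 region read 13.7, 8.55 and 6.99 (WT), 1.95, 2.12 and 3.20 (Ebf1-KO), and 4.59, 4.24 and 1.74 (Pax5-KO). Both knockouts lay below WT, at −0.84 ± 0.34 (adjusted p = 2.61e-05) and −0.52 ± 0.34 (adjusted p = 0.00106). TMM scaling and quantile normalization ended the Pax5-KO call (adjusted p = 0.268 and 0.493). Quantile normalization also ended the Ebf1-KO call (adjusted p = 0.409). In intron 1 of H2-Ab1 an EBF1 region read 7.19, 2.85 and 3.63 (WT), 3.89, 0.610 and 2.88 (Ebf1-KO), and 2.47, 1.06 and 1.30 (Pax5-KO) and was called lower in Pax5-KO (−0.30 ± 0.39, adjusted p = 0.0171), though not without WT 1 (adjusted p = 0.153) or Pax5-KO 2 (adjusted p = 0.0766). TMM scaling also ended that call (adjusted p = 0.499). In intron 1 of H2-Eb2 a region bound by both read 5.88, 4.56 and 2.59 (WT), 1.17, 2.12 and 1.60 (Ebf1-KO), and 1.76, 2.12 and 1.30 (Pax5-KO). It was called lower in both (−0.21 ± 0.37 and −0.19 ± 0.37, adjusted p = 0.0195 and 0.0289). TMM scaling ended both calls (adjusted p = 0.474 for Ebf1-KO and 0.636 for Pax5-KO). The Ebf1-KO call was lost without WT 1 (adjusted p = 0.111) or Ebf1-KO 1 (adjusted p = 0.0765) and the Pax5-KO call without any 1 of WT 1, WT 2, Pax5-KO 1 or Pax5-KO 3 (adjusted p from 0.0507 to 0.149). A PAX5 region 14.4 kb past the Tap2 start read 10.4, 7.12 and 3.37 (WT), 4.67, 1.82 and 3.52 (Ebf1-KO), and 4.59, 7.16 and 2.61 (Pax5-KO). The groups overlapped, and the lower call in Ebf1-KO (−0.05 ± 0.35, adjusted p = 0.0363) was lost without any 1 of WT 1, WT 2, Ebf1-KO 2 or Ebf1-KO 3 (adjusted p from 0.0518 to 0.263). TMM scaling ended it as well (adjusted p = 0.838). The regions near H2-Oa, H2-Q9 and Psmb8 were called in no comparison and averaged 2.79, 5.76 and 3.68 tags per 10 M in WT.

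**Figure D4:**
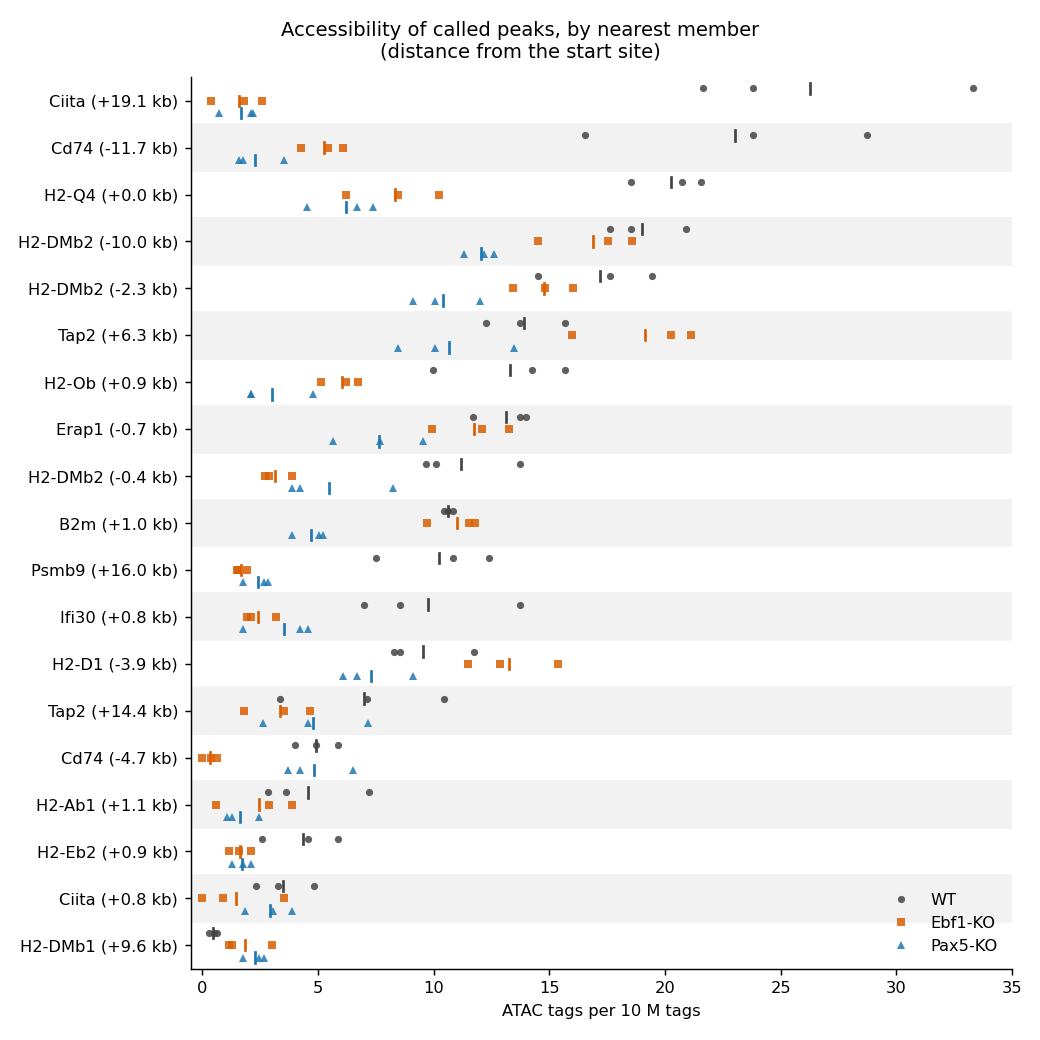
ATAC signal at the 19 member regions called in at least 1 comparison, in tags per 10 M. Each point is 1 library, with a bar at the mean of the 3 libraries of a genotype. Names give the nearest member and the distance from a start site of it in the authors' annotation. The Ciita intron 8 region and the Cd74 region at 11.7 kb lose the most tags per 10 M against WT in both knockouts, and the B2m region lies below WT in Pax5-KO and overlaps with it in Ebf1-KO.

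Of the 24 member regions, CCCNNGGG was in 3 of 9 EBF1-only, 1 of 6 shared and 2 of 9 PAX5-only regions. Over all bound regions it was in 57.8%, 44.9% and 8.11%. GCNTGAC was in 0 of 9, 1 of 6 and 1 of 9 member regions of these classes, and in 9.32%, 17.8% and 21.2% over all bound regions.

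The authors' deposited table for Ebf1-KO listed 7 members as higher than WT and 7 as lower. The authors' deposited table for Pax5-KO listed 10 and 4. Every member listed there had a log2 fold change of at least 1.07 in size, whereas the calls here used no fold threshold. Of the members listed as higher, 5 and 9 were also called higher here, and all of those listed as lower were called lower here. The exceptions, H2-DMb1 in both knockouts and H2-Eb1 in Ebf1-KO, had too few reads to be tested here. In the authors' deposited table H2-DMb1 had log2 fold changes of 6.40 for Ebf1-KO and 6.74 for Pax5-KO, and in the authors' deposited table H2-Eb1 had 2.92 in Ebf1-KO.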

How the data were processed

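RNA and ATAC libraries (9 each, 3 per genotype) were grouped by the genotype and number in their titles. The gene-table column used as WT 2 is headed PWT2, where the others of its genotype are headed WT, and was matched by genotype and number. Per the submitters' processing notes, TopHat, Bowtie2, HOMER, edgeR and DESeq2 were used on mm10, with no versions given in the sources used here. The signal in the gene table is exon reads that the authors scaled to 10 M mapped reads, with 1 transcript per gene, per the file headers. Divided by the worth of 1 read, 99.99 to 100% of values were whole to within 0.1 reads. The ATAC signal per region, its peak score and the distance of each region come from the authors' HOMER tables; library totals turned these values into tags for the filter. The authors deposited 4 tables of log2 fold changes and adjusted p-values, whose 36 columns of per-library values were not used.

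Members and lists were chosen with earlier results of these data known. All members were named, and from other lists at most the 2 called genes of largest change per comparison, some of which are not reported here. Genes passing edgeR's filterByExpr on the recovered reads were tested with limma (trend, two-sided) on log2(value + 1), in 1 model over 9 libraries with the authors' scaling, with Benjamini-Hochberg adjustment over all genes, and regions with at least 10 tags likewise. On the recovered reads edgeR called 7379, 6401 and 5184 genes, and limma 7095, 5976 and 3962, in Ebf1-KO and Pax5-KO against WT and between the knockouts. RNA libraries of the same number but different genotype deviated together (r from 0.116 to 0.439 in 9 pairs, against −0.366 to 0.03 in the 18 others). The numbers were therefore taken to pair them, but only in an alternative fit with the number as a block. The main calls come from the fit without pairing. Alternatives were other pseudocounts, filters, TMM and quantile scaling, edgeR, DESeq2, the number as a block, only the groups compared, and each library left out. Python 3.11.15 was used with matplotlib 3.10.9, pandas 2.3.3 and NumPy 2.4.6, and R 4.3.3 with DESeq2 1.42.0, edgeR 4.0.16 and limma 3.58.1.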

Additional observations from a re-analysis of the deposited data

Results flagged for a closer look

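H2-T10 was called lower than WT in Ebf1-KO and higher in Pax5-KO, so that its changes against WT went opposite ways. The direct comparison of Ebf1-KO with Pax5-KO gave −2.78 ± 0.23 on the log2 scale (limma, adjusted p = 1.25e-07), with every Ebf1-KO library below every Pax5-KO library. The rise in Pax5-KO was not called with DESeq2 or edgeR, nor under TMM or quantile scaling (adjusted p = 0.111, 0.0595, 0.0509 and 0.171).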

How the results depend on the processing

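In Pax5-KO the members lower were 7 with TMM, 7 with edgeR and 8 with DESeq2, and quantile normalization gave 10 higher and 10 lower. Over all genes, 51.9%, 52.3%, 52.0% and 46.7% of the calls were higher under these settings in turn, against 74.5% in the main setting. With libraries paired by number as a block, the members higher and lower were 17 and 7 for Ebf1-KO, 19 and 4 for Pax5-KO and 12 and 12 between the knockouts, with 8783, 8073 and 5622 genes called in all; member calls that it changed stand beside their results. ATAC libraries of the same number did not clearly deviate together (r from −0.0523 to 0.11, against −0.138 to 0.102 in other pairs), and the block changed no member region's call. Member regions higher in Ebf1-KO numbered 0 with a pseudocount of 5, with at least 50 tags or with only the 2 groups compared, 9 with TMM and 9 with quantile normalization, and those lower 6 and 4 with the last 2. Over all regions, 6.04%, 6.32%, 5.82%, 40.6% and 54.7% of the Ebf1-KO calls were higher under these settings in turn. In Pax5-KO the member regions higher were 0 with at least 50 tags, 2 with TMM and 7 with quantile normalization, those lower 5 and 4 with the last 2, and TMM called 5035 regions in all against 7708. Over all regions, 3.84%, 39.3% and 53.3% of the Pax5-KO calls were higher under these settings in turn. Between the knockouts 3 member regions were higher in Ebf1-KO with a pseudocount of 5 and 3 with quantile normalization. Over all regions, 42.6% and 46.2% of those calls were higher, against 41.7% in the main setting. Where the change before the median was taken off turned sign, the log2 value relative to the median of that setting was −0.26 for Nlrc5 RNA in Ebf1-KO with quantile normalization, and for regions 0.79 (H2-DMb2 at 10.0 kb), 0.80 (H2-K1), 0.78 (Erap1), 0.75 (H2-DMb2 at 2.27 kb) for Ebf1-KO and 0.23 (H2-DMb2 at 10.0 kb), 0.71 (H2-K1), 0.0864 (Erap1), 0.17 (H2-DMb2 at 2.27 kb) for Pax5-KO with TMM, and 0.44 (H2-DMb2 at 10.0 kb), 0.90 (H2-K1), 0.67 (Erap1), 0.47 (H2-DMb2 at 2.27 kb), −0.0805 (H2-Eb2), 0.00837 (H2-Ob), 0.21 (Tap2 at 14.4 kb) for Ebf1-KO and 0.73 (Cd74 at 4.68 kb), 0.26 (H2-DMb2 at 10.0 kb), 0.55 (Cd74 intron 1), 0.81 (H2-K1), 0.16 (Erap1), 0.20 (H2-DMb2 at 2.27 kb), −0.0541 (H2-DMb2 promoter), 0.60 (Tap2 intron 5), 0.57 (H2-D1) for Pax5-KO with quantile normalization. Leaving out each library in turn gave, for RNA members, 16 to 17 higher, 5 to 7 lower and 6161 to 7770 in all for Ebf1-KO, 15 to 19 higher, 4 to 4 lower and 4950 to 6464 in all for Pax5-KO and 7 to 10, 11 to 11 and 3456 to 4365 between the knockouts. For member regions it gave 0 to 1 higher, 9 to 11 lower and 7112 to 8115 in all for Ebf1-KO, 1 to 1 higher, 9 to 13 lower and 6507 to 8235 in all for Pax5-KO and 1 to 5, 1 to 2 and 2164 to 3614 between the knockouts. The cause of these shifts was not tested. Low read numbers limit the values of Ciita, H2-Aa and H2-Ab1, which had 104, 147 and 91 reads over 9 libraries.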
